A study of Mus musculus with 12 samples.

Results

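The transcripts described here come from 36 mouse genes of fatty acid oxidation and lipid handling, out of 55416 gene identifiers measured. They were taken as a named list and cover uptake, activation and the carnitine shuttle, the steps of mitochondrial beta-oxidation, electron transfer, lipid droplets, uncoupling proteins, regulators and thioesterases. All 36 were found by symbol and all 36 passed the filter on low counts in both tissues. RNA was sequenced from a calf muscle, the gastrocnemius, and from the hypothalamus, a brain region that governs feeding and energy use, of 6 male BALB/c mice 7 weeks of age. In 3 mice, cells of CT-26, a mouse colon carcinoma line, had been injected under the skin of the abdomen, and these mice are labelled cachectic, meaning wasted by the tumour. The other 3 were normal mice without tumour cells. The CT-26 mice weighed 7 to 10% less than healthy mice by day 10, and their tissues were taken on day 25, while no collection day is given for the controls. Both tissues came from the same numbered mice, which gave 12 libraries in 4 groups of 3. The cell line is a single transplanted tumour model, and the tissues were taken whole, so fewer cells of a type and less RNA per cell cannot be told apart in any result here.

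Muscle takes up fatty acids released from circulating triglyceride or from its own lipid droplets, binds them to coenzyme A and moves them into mitochondria as carnitine esters. Carnitine palmitoyltransferase 1 is the entry step that malonyl-CoA inhibits, and it has a form typical of liver and many other tissues, encoded by Cpt1a, and a muscle form, encoded by Cpt1b. Inside the mitochondrion each turn of beta-oxidation runs through a dehydrogenase, a hydratase, a second dehydrogenase and a thiolase. Neurons oxidise little fatty acid, and in the brain this pathway is known mainly from astrocytes.

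Levels are given on 2 scales. CPM is the number of counts per 1000000 after TMM scaling within a tissue and serves for comparing mice, and TPM is the length-corrected transcript abundance deposited by the authors and serves for comparing genes or tissues. Where 3 values follow each other they belong to mice 1, 2 and 3 of the group, and mouse 1 with CT-26 is not the same animal as control mouse 1. Muscle libraries held 26015741 to 42771331 expected counts and hypothalamic ones 27195316 to 52535761. Summed myofibre markers ran from 68431 to 157973 CPM in the gastrocnemius against 40.1 to 62.3 CPM in the hypothalamus, and summed neuron markers from 1.9 to 4.16 CPM against 2517 to 2769 CPM, so the libraries carried the defining markers of their labelled tissue. Among the muscle libraries, control mouse 3 was the highest of the controls for 33 of the 36 genes, where 35.7% of all tested genes had their highest control value in that mouse. CT-26 mouse 3 was the highest of its group for 25 of 36, where this held for 33.6% of all tested genes. CT-26 mouse 2 was the lowest of its group for 27 of 36, and the share over all tested genes was not computed for it.

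In control mice the oxidation genes were far more abundant in muscle than in hypothalamus. Of the 36 genes, 33 were called higher in gastrocnemius and 2 lower (edgeR quasi-likelihood test, adjusted p below 0.05), while 83.4% of all 18746 genes tested were called, 35.7% of all tested genes as higher in muscle and 47.7% as lower. The median log2 difference of the 36 genes was 3.43, beside -0.34 for all genes tested, on the TMM scale. With TPM the same median was 1.90 and with library totals 2.13. Cpt1b, the muscle carnitine palmitoyltransferase 1, measured 86.6, 94.7 and 104 TPM in control muscle and 1.35, 1.13 and 1.43 TPM in control hypothalamus. Its log2 difference was 7.84 ± 0.17 on the TMM scale (SE; adjusted p = 8.49e-14) and 5.73 with TPM. Ucp3, an uncoupling protein of skeletal muscle, measured 57.3, 92.4 and 66.4 TPM against 1.89, 1.78 and 1.98 TPM, a log2 difference of 6.73 on the TMM scale and 4.90 with TPM. Cd36, a membrane fatty acid transporter, stood 6.90 higher in muscle on the log2 scale with TMM and 4.95 with TPM. For Lpl, the lipase that frees fatty acids from lipoproteins, these differences were 7.09 and 5.30.

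The 2 genes with lower levels in muscle were Ucp2, an uncoupling protein of many cell types including immune cells (9.56 ± 1.19 TPM in muscle against 53.1 ± 5.06 TPM in hypothalamus, SD, n = 3; log2 -0.90 on the TMM scale and -2.42 with TPM), and Acot1, an acyl-CoA thioesterase (log2 -1.17 and -2.39). Cpt1a was not called on the TMM scale (log2 0.16), but it was lower in muscle with library totals (log2 -1.14) and with TPM (log2 -1.15), and Slc27a1, a fatty acid transport protein called higher in muscle on the TMM scale (log2 0.56), also reversed, to -0.74 and -0.87. The calls of higher levels in muscle for Angptl4 (log2 1.49 on the TMM scale) and Ppargc1a (log2 1.67) were lost with library totals (0.20 and 0.36) and with TPM (-0.02 and 0.21). The median of all genes in this comparison moved to -1.63 with library totals and to -1.13 with TPM, so the direction for Cpt1a, Slc27a1 and Angptl4 depends on the scale. The calls for Ucp2 and Acot1 were lost without control mouse 1 (log2 -0.66 and -0.65, adjusted p = 0.14 and 0.23) and without control mouse 2 (log2 -0.94 and -0.96, adjusted p = 0.054 and 0.14), Acot1 moved to -2.43 without control mouse 3, and that of Slc27a1 was lost without control mouse 3 (log2 0.33, adjusted p = 0.073). On the TPM scale control muscle held 2.65, 3.84 and 2.87 of Cpt1a and control hypothalamus 6.89, 7.42 and 8.09, which do not overlap.

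**Figure D1:**
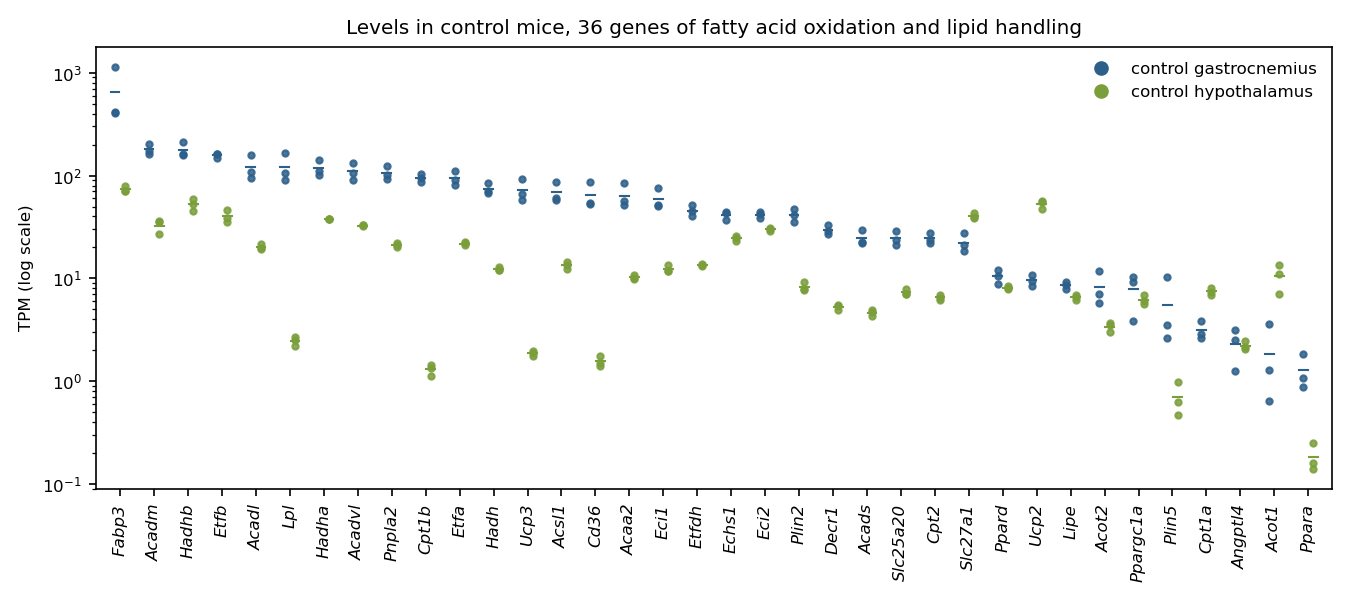
TPM (log axis) of the 36 genes in the 3 control mice, gastrocnemius in blue and hypothalamus in green, with 1 point per library and a bar at each group mean, in order of the mean in gastrocnemius. Fabp3 leads in both tissues, with means of 652 TPM and 73.8 TPM, and Cpt1a, Ucp2, Slc27a1 and Acot1 are the genes whose muscle mean in TPM lies under the hypothalamic mean.

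Within control muscle, Fabp3, the cytosolic fatty acid carrier of heart and muscle, was the most abundant of the 36 at 652 ± 417 TPM (SD, n = 3). Its spread came from control mouse 3, at 1133 TPM beside 405 and 418 TPM in the other controls. Acadm (180 ± 19.9 TPM), Hadhb (179 ± 31.0 TPM) and Etfb (157 ± 6.82 TPM) followed. Hadhb does not differ from either neighbour beyond its spread, while Acadm was above Etfb in each control. Next came Acadl, Lpl, Hadha, Acadvl and Pnpla2, whose means of 107 to 121 TPM lay within each other's SD. The least abundant were Cpt1a (3.12 ± 0.633 TPM), Angptl4 (2.30 ± 0.95 TPM), Acot1 (1.86 ± 1.57 TPM) and Ppara (1.27 ± 0.518 TPM). In control hypothalamus the order was led by Fabp3 (73.8 ± 4.96 TPM), then Ucp2 (53.1 ± 5.06 TPM) and Hadhb (52.6 ± 6.96 TPM), of which Ucp2 and Hadhb do not differ beyond their spread, and Ppara was again last, at 0.183 ± 0.0586 TPM.

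In the gastrocnemius of CT-26 mice, transcripts of several beta-oxidation enzymes and of Cpt1a were lower. Those of the triglyceride lipase Pnpla2, of the hydratase Echs1 and of Ucp2 were higher. In control muscle Cpt1a averaged 3.12 TPM beside 95.1 TPM for Cpt1b, the muscle form of the same enzyme, which did not pass the test. Summed over the 15 beta-oxidation and electron transfer genes, levels overlapped between the groups. The sums were 1482 to 2106 CPM in CT-26 mice against 1788 to 2801 in controls, and 1198 to 1669 TPM against 1218 to 1566. Of the 36 genes, 7 fell (Cpt1a, Cpt2, Acads, Hadh, Acaa2, Decr1 and Ucp3), 3 rose (Pnpla2, Echs1 and Ucp2) and 26 did not pass the test. Called genes made up 27.8% of the list, beside 38.0% of the 14265 genes tested (19.6% higher and 18.3% lower), a share below that of all genes. The median log2 fold change of the 36 was -0.25, with 11 above and 25 below 0, against -0.0015 for all genes. Values of the groups did not overlap for 12 of the 36 genes (4 higher, 8 lower), where 51.7% of all tested genes had groups that did not overlap.

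Scaling moved the balance of these calls. With library totals the median of all genes was 0.199 higher in CT-26 muscle, 70.42% of all calls were in the higher direction instead of 51.71%, and the listed genes split 15 above to 21 below 0 with a median of -0.058. With TPM plus 0.5 the median of all genes was 0.284, 81.46% of calls were higher, and the list split 21 above to 15 below with a median of 0.140. Under TPM 4 of the listed genes fell (Cpt1a, Acads, Acaa2 and Decr1) and 6 rose (Pnpla2, Echs1, Ucp2, Eci2, Ppard and Acot2). Without control mouse 3 the list split 16 above to 20 below 0 with a median of -0.07, and 4 genes fell (Cpt1a, Acads, Hadh and Decr1). The calls for Cpt1a, Acads, Decr1, Echs1 and Pnpla2 held in each of the 15 alternatives run in this tissue.

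**Figure D2:**
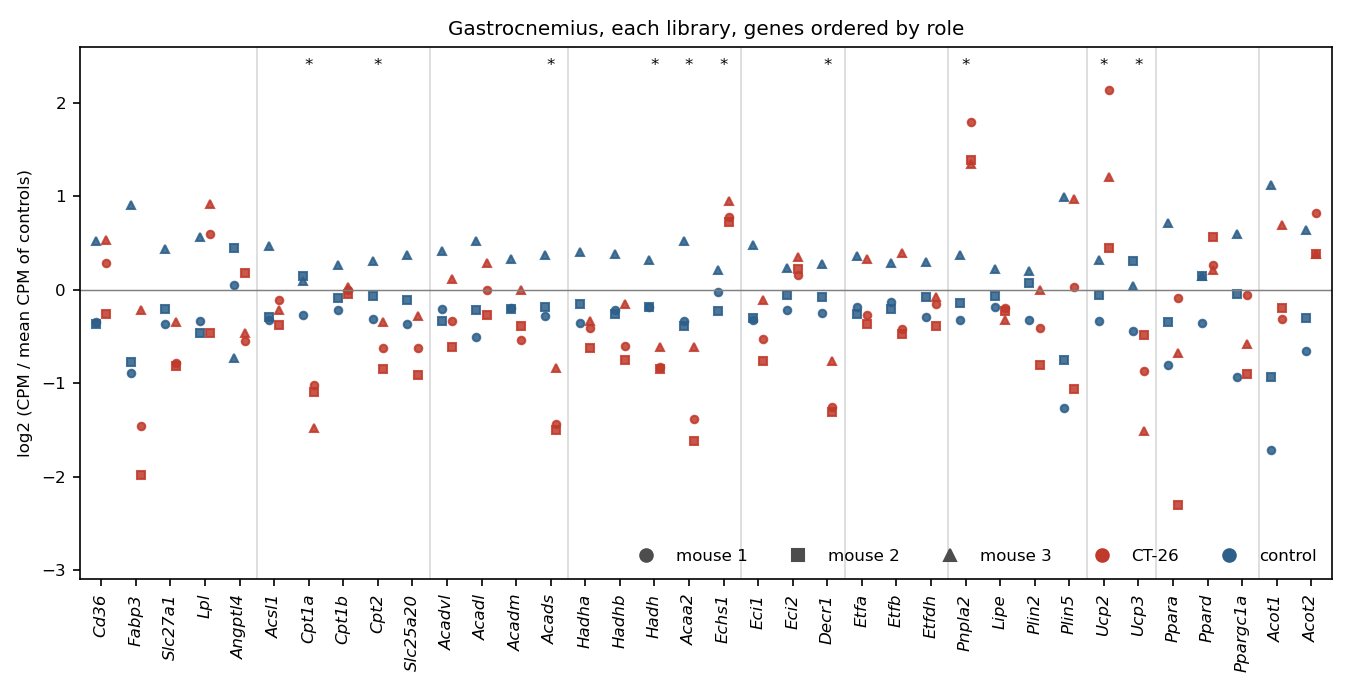
Each gastrocnemius library relative to the control mean, as log2 of CPM over the mean CPM of the 3 controls, for the 36 genes in order of role (grey lines part the roles; asterisks mark adjusted p below 0.05; CT-26 in red, control in blue, symbol shape gives the mouse number). Control mouse 3, the blue triangles, is the highest control for 33 of 36 genes, and the red points of Cpt1a, Acads, Hadh, Acaa2 and Decr1 all lie under the blue ones while those of Pnpla2, Echs1 and Ucp2 all lie above.

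Promoter stretches of 4 genes called in muscle are shown, since these transcripts moved in opposite directions and nuclear receptors of lipid metabolism bind short repeats of the letters AGGTCA. They are the 250 bases before the annotated start of a gene that fell and is the most sparsely expressed of the shuttle (Cpt1a, chr19:3323051-3323300, plus strand), one that rose (Echs1, chr7:140116422-140116671, minus strand), one that fell and is known mainly from skeletal muscle (Ucp3, chr7:100472741-100472990, plus strand), and the one that rose most (Pnpla2, chr7:141454938-141455187, plus strand). Sequences are from RefSeq on GRCm38.p6, 5′ to 3′ on the gene's strand, and capitals mark matches to AGGTCA on either strand.
Cpt1a: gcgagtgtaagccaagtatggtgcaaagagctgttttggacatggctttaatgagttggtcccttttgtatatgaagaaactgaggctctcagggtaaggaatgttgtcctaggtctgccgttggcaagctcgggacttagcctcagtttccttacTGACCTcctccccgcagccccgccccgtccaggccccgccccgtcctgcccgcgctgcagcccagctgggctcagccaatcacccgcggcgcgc
Echs1: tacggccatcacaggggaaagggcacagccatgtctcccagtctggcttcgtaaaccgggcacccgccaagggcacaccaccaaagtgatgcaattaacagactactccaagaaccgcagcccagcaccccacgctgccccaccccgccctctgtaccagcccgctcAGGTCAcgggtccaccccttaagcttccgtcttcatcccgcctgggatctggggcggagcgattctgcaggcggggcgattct
Ucp3: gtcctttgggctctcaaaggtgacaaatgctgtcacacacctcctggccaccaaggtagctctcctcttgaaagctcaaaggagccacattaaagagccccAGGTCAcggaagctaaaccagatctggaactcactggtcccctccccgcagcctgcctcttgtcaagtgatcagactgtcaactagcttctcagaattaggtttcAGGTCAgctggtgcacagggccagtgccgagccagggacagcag
Pnpla2: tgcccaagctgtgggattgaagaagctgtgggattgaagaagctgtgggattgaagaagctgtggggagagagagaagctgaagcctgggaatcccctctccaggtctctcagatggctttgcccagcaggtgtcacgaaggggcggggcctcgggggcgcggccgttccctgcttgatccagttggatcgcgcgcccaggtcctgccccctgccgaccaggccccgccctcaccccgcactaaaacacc
The match of Cpt1a lay 94 to 89 bases before the start and that of Echs1 83 to 78 bases before it. Ucp3 had 2 matches, at 149 to 144 and at 44 to 39 bases before the start, and Pnpla2 had none. Windows of 300 bases, from 250 before to 50 after the start, were found by symbol for 31 of the 36 genes, some with more than 1 start, giving 36 windows. A match stood in 9 of these 36 (25.0%), in genes that fell, rose or did not pass the test alike, beside 16.3% of all 32851 such windows. Among the genes called in muscle the only matches were those of Cpt1a, Echs1 and Ucp3 shown above. Cpt2, Acads, Hadh, Ucp2 and Pnpla2 had none, and Acaa2 and Decr1 had no window. The longer PPAR element, AGGNCA repeated after 1 base, the estrogen-related receptor element TCAAGGTCA and the glucocorticoid receptor element, GNACA and TGTNC with 3 bases between, searched on both strands, were in 0 of the 36 windows and in 0.381%, 0.423% and 0.475% of all windows. The FOXO element GTAAACA was in 1 window, that of Lipe, and in 3.65% of all. The half-site AGGTCA is contained in the estrogen-related receptor element, and a match describes letters only.

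Of the 5 uptake genes 0 passed the edgeR test in muscle, 1 had an unadjusted p below 0.05, and DESeq2 called 1, Slc27a1. Fabp3 measured 164, 114 and 389 CPM in CT-26 mice and 243, 264 and 846 CPM in controls. Its groups overlapped, because CT-26 mouse 3 lay above control mice 1 and 2, and its log2 fold change of -1.02 ± 0.58 had an adjusted p of 0.19. Without control mouse 3 that value was -0.19. Of the exonic bases of Fabp3, 9.84% lie opposite those of Zcchc17, which reached at most 74.5 CPM in any library. Cd36 measured 228, 157 and 271 CPM against 148, 145 and 269 CPM, with mouse 3 the highest of each group and a log2 fold change of 0.23 ± 0.28 (adjusted p = 0.56). Angptl4, a secreted inhibitor of lipoprotein lipase, measured 3.49, 5.77 and 3.71 CPM against 5.29, 6.96 and 3.09 CPM. Its groups overlapped and its log2 fold change of -0.25 ± 0.31 (adjusted p = 0.55) turned to 0.16 on the TPM scale. Lpl averaged 724 ± 312 CPM in CT-26 mice and 527 ± 220 CPM in controls, and Slc27a1 36.4 ± 6.97 against 56.3 ± 17.6 CPM (SD, n = 3), also with overlapping groups.

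At the carnitine shuttle, the liver form of carnitine palmitoyltransferase 1 fell and the muscle form did not pass the test. Cpt1a (chromosome 19, 3322334 to 3385733) measured 6.61, 6.27 and 4.81 CPM in CT-26 mice and 11.1, 14.9 and 14.3 CPM in controls. Every CT-26 mouse lay below every control, and the level was 2.28-fold lower (log2 -1.19 ± 0.18 SE, adjusted p = 0.0017). Over the alternatives its log2 fold change ran from -1.31 to -0.72. Cpt1b (chromosome 15, 89416405 to 89425863) measured 259, 252 and 266 CPM against 224, 245 and 312 CPM. The CT-26 values sat inside the control range, with a log2 fold change of -0.01 ± 0.15 (adjusted p = 0.97) that became 0.20 with library totals and 0.40 with TPM. Its exons share 81.4% of their bases with an annotated readthrough gene on the same strand, which reached at most 1.38 CPM in any library. Cpt1b itself measured 2.18, 2.56 and 1.87 CPM in CT-26 hypothalamus and 2.78, 2.63 and 2.47 CPM in controls, nearer to that level. Its hypothalamic level, and with it the difference from muscle, is therefore less certain. How RSEM divided the shared reads was not tested.

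The inner-membrane enzyme Cpt2 (chromosome 4, 107903981 to 107923610), which turns acylcarnitine back into acyl-CoA, measured 37.3, 31.9 and 45.5 CPM in CT-26 mice and 46.5, 55.0 and 71.4 CPM in controls. The groups did not overlap, but CT-26 mouse 3 and control mouse 1 lay close together. It was 1.51-fold lower (log2 -0.59 ± 0.19, adjusted p = 0.039), and the call was lost in 7 of 15 alternatives, among them library totals (-0.37, adjusted p = 0.16), without control mouse 3 (-0.41, adjusted p = 0.13) and without CT-26 mouse 2 (-0.49, adjusted p = 0.087). Slc25a20, the carnitine carrier, averaged 28.5 ± 6.24 CPM against 42.8 ± 11.5 CPM, and Acsl1, the main long-chain acyl-CoA synthetase of muscle, 234 ± 21.2 against 275 ± 91.7 CPM (SD, n = 3). Neither passed the edgeR test, but Slc25a20 (log2 -0.59, adjusted p = 0.067) was called lower by DESeq2 (adjusted p = 0.039) and in 6 of the 15 alternatives in all.

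Among the 4 acyl-CoA dehydrogenases, which open each turn of beta-oxidation on chains of different length, the short-chain enzyme fell. Acads (chromosome 5, 115110299 to 115119346) measured 16.5, 15.8 and 25.1 CPM in CT-26 mice and 36.9, 39.3 and 58.0 CPM in controls. The groups were well apart, and mouse 3 was the highest in each. The level was 2.34-fold lower (log2 -1.23 ± 0.23, adjusted p = 0.0048), with a range from -1.47 to -0.82 over the alternatives. Acadl, the long-chain enzyme, measured 230, 191 and 281 CPM against 162, 198 and 330 CPM, with overlapping groups and a log2 fold change of 0.03 ± 0.27 (adjusted p = 0.95). Acadvl averaged 183 ± 47.4 against 217 ± 63.3 CPM and Acadm 170 ± 33.6 against 209 ± 46.4 CPM (SD, n = 3), without passing the test. For Acadvl, 42.9% of its exonic bases lie opposite those of Dvl2, and without a stated strand setting reads of the pair cannot be told apart.

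The later steps of the cycle split. Echs1, the short-chain enoyl-CoA hydratase (chromosome 7, 140105710 to 140116476), measured 107, 103 and 120 CPM in CT-26 mice and 61.1, 53.3 and 72.3 CPM in controls. Each CT-26 mouse lay above each control, and the level was 1.77-fold higher (log2 0.82 ± 0.14, adjusted p = 0.0034), from 0.72 to 1.2 over the alternatives. Its exons share 142 bases with Paox on the opposite strand, which reached at most 15.5 CPM in any library.

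Hadh, the next dehydrogenase of the cycle for medium and short chains (chromosome 3, 131233419 to 131272101), measured 73.4, 72.0 and 84.9 CPM in CT-26 mice and 114, 114 and 162 CPM in controls. All CT-26 values lay below all controls, and the level was 1.69-fold lower (log2 -0.76 ± 0.17, adjusted p = 0.0090), but with TPM the value was -0.37 and the call was lost (adjusted p = 0.10). Acaa2, the mitochondrial thiolase (chromosome 18), measured 35.4, 30.1 and 60.5 CPM against 73.5, 70.6 and 133 CPM. CT-26 mouse 3 came near the lower controls, and the level was 2.20-fold lower (log2 -1.14 ± 0.32, adjusted p = 0.024). It missed the threshold when CT-26 mouse 1 was left out (-1.03, adjusted p = 0.082), when CT-26 mouse 2 was (-0.96, adjusted p = 0.052) and when control mouse 3 was (-0.78, adjusted p = 0.075). The subunits of the trifunctional protein, which carries out these steps on long chains, were not called. Hadha measured 257, 221 and 271 CPM against 267, 306 and 450 CPM, with CT-26 mouse 3 just above control mouse 1 (log2 -0.45 ± 0.21, adjusted p = 0.12), and Hadhb averaged 215 ± 48.5 against 299 ± 80.0 CPM (SD, n = 3).

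Decr1, the reductase needed for polyunsaturated chains (chromosome 4, 15917240 to 15945507), measured 37.5, 36 and 52.6 CPM in CT-26 mice and 75.1, 84.5 and 108 CPM in controls. The groups were apart and the level was 2.13-fold lower (log2 -1.09 ± 0.19, adjusted p = 0.0037), from -1.28 to -0.70 over the alternatives. Of the enoyl-CoA isomerases, which shift double bonds into place, Eci2 measured 52.0, 54.6 and 59.6 CPM against 40.3, 44.9 and 55.0 CPM. Control mouse 3 overlapped the CT-26 values, and the log2 fold change of 0.24 ± 0.14 (adjusted p = 0.20) passed the test with library totals (0.45, adjusted p = 0.034) and with TPM (0.63, adjusted p = 0.0095). Eci1 averaged 43.0 ± 10.2 against 58.4 ± 19.8 CPM. The 3 genes of the electron transfer flavoprotein and its oxidoreductase, which pass the electrons of these dehydrogenases to the respiratory chain, ranged from -0.20 to -0.07 in log2 fold change, and 0 of 3 passed the edgeR test, 0 had an unadjusted p below 0.05 and DESeq2 called 0.

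In the lipid droplet group, Pnpla2 had the largest rise of the 36 genes in muscle. Pnpla2, adipose triglyceride lipase, which takes the first fatty acid off stored triglyceride (chromosome 7, 141455198 to 141460743), measured 718, 540 and 525 CPM in CT-26 mice and 165, 187 and 267 CPM in controls. The lowest CT-26 mouse lay above the highest control, and the level was 2.88-fold higher (log2 1.53 ± 0.22, adjusted p = 0.0015), from 1.37 to 1.92 over the alternatives. Lipe, hormone-sensitive lipase, which acts on the next bond, averaged 18.8 ± 0.879 CPM against 22.2 ± 3.25 CPM (SD, n = 3), which did not pass the test. Plin2, a droplet coat protein, measured 26.9, 20.5 and 35.8 CPM against 28.5, 37.7 and 41.2 CPM, with overlapping groups (log2 -0.37 ± 0.22, adjusted p = 0.22). Plin5, the droplet coat protein of oxidative tissue, ran from 5.42 to 22.2 CPM in CT-26 mice and from 4.71 to 22.5 CPM in controls, with overlapping groups.

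The uncoupling proteins, mitochondrial inner-membrane carriers, moved in opposite directions. Ucp3 (chromosome 7, 100472990 to 100486432) measured 95.7, 125 and 61.4 CPM in CT-26 mice and 129, 217 and 180 CPM in controls. CT-26 mouse 2 and control mouse 1 were neighbours, and the level was 1.86-fold lower (log2 -0.90 ± 0.28, adjusted p = 0.034). The call was lost in 6 of 15 alternatives, with TPM plus either pseudocount (-0.55 with 0.5, adjusted p = 0.14), and when mouse 1 or 3 with CT-26 was left out (-0.90 and -0.66, adjusted p = 0.086 and 0.070) or mouse 2 or 3 of the controls (-0.72 and -0.88, adjusted p = 0.11 and 0.080). Ucp2 (chromosome 7, 100493337 to 100502020) measured 80.2, 24.9 and 41.9 CPM against 14.4, 17.5 and 22.7 CPM. CT-26 mouse 2 barely exceeded control mouse 3, and the level was 2.7-fold higher (log2 1.43 ± 0.38, adjusted p = 0.020), but not when control mouse 1 was left out (1.28, adjusted p = 0.074) or when control mouse 2 was (1.40, adjusted p = 0.061). Without CT-26 mouse 1, the library at 80.2 CPM, the log2 fold change was 0.88 (adjusted p = 0.043).

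Of the 3 regulators 0 passed the edgeR test in muscle or had an unadjusted p below 0.05, DESeq2 called 0 and the TPM test called 1, Ppard. Ppargc1a, the coactivator that drives mitochondrial genes, measured 45.2, 25.2 and 31.5 CPM in CT-26 mice and 24.6, 45.5 and 71.0 CPM in controls, with overlapping groups (log2 -0.47 ± 0.36, adjusted p = 0.33; -0.05 without control mouse 3). Ppara, the fatty acid receptor most active in liver, ran from 0.891 to 4.13 CPM and from 2.52 to 7.21 CPM. Ppard, its counterpart in muscle, ran from 40.0 to 51.1 CPM in CT-26 mice, above the control range of 27.1 to 38.5 CPM, without passing the test on the TMM scale. The thioesterases Acot1 and Acot2, which release fatty acid from coenzyme A, are near-identical neighbours whose reads RSEM divided by probability, with expected counts that were not whole in 11 libraries for each. Their own levels are therefore uncertain, and their sum ran from 25.5 to 34.0 CPM in CT-26 muscle and from 12.2 to 32.3 CPM in controls. Counts were also not whole in 12 libraries for Fabp3 and Hadhb, 11 for Acsl1 and Acadvl and 10 for Cpt1b and Lipe, among others. Acot2 was called higher without control mouse 3 (log2 1.02, adjusted p = 0.011) and with TPM.

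**Figure D3:**
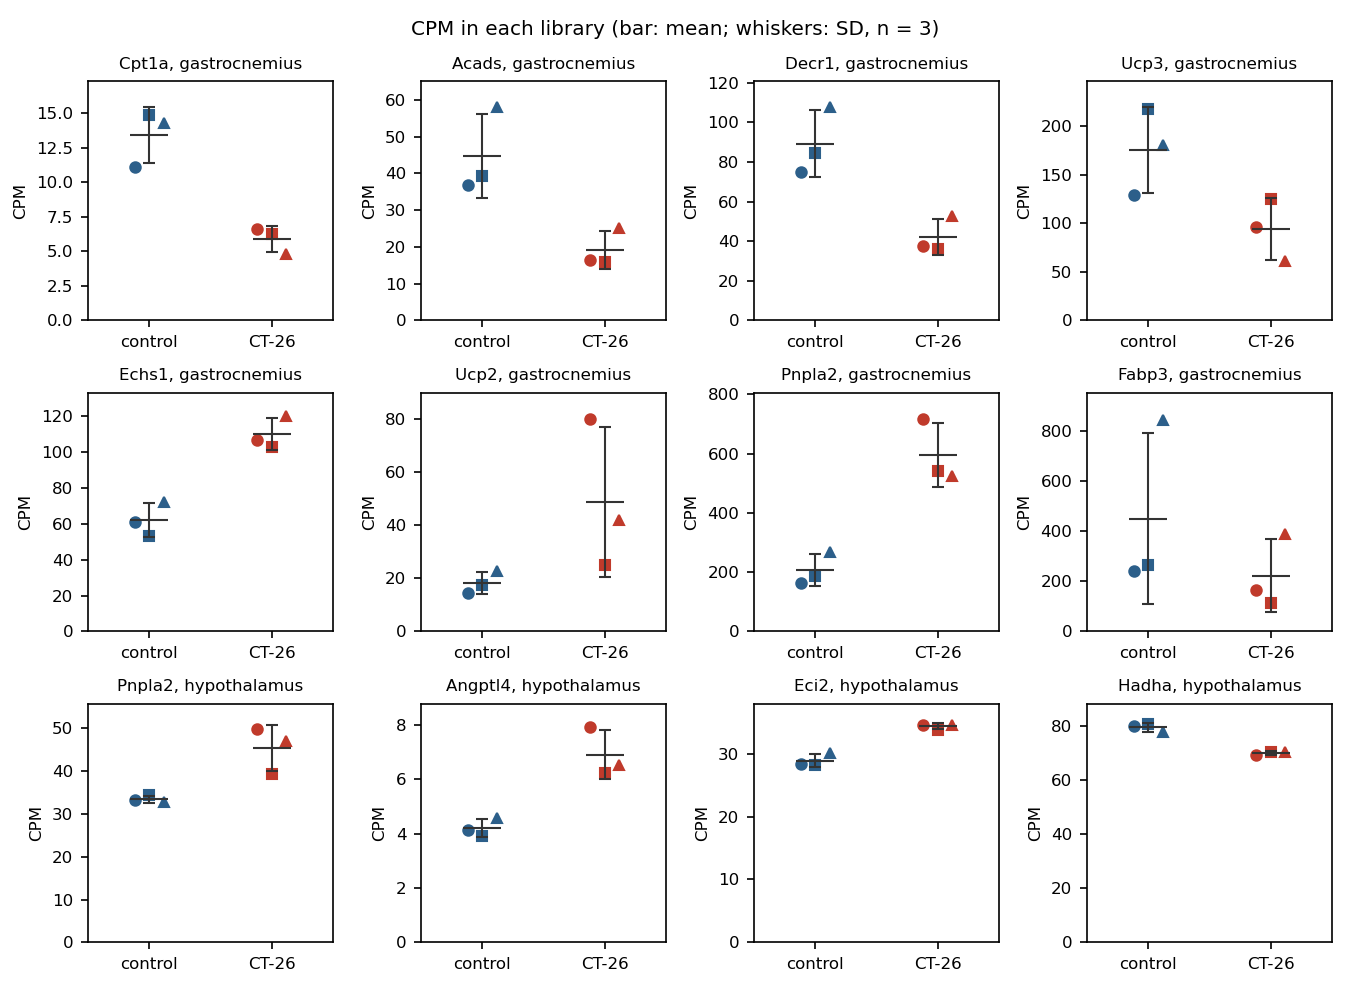
CPM by library for 8 genes in gastrocnemius and 4 in hypothalamus (points are mice 1 to 3 as circle, square and triangle; horizontal bars are means and whiskers SD, n = 3; axes start at 0). In gastrocnemius Pnpla2 runs from 525 to 718 CPM in CT-26 mice and from 165 to 267 CPM in controls, while the Fabp3 groups overlap.

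Ratios of TPM within a library do not depend on library scaling. The ratio of Cpt1b to Cpt1a in muscle was 66.8, 70.8 and 88.9 in CT-26 mice and 32.7, 24.7 and 36.2 in controls, with every CT-26 mouse above every control (means 75.5 and 31.2). For Ucp3 over Ucp2 the ratio was 0.921, 4.26 and 1.33 in CT-26 mice and 6.82, 8.58 and 6.98 in controls, with all CT-26 mice below. For Pnpla2 over Lipe it was 53.5, 36.1 and 40.0 against 10.9, 12.9 and 13.6, with all CT-26 mice above. Each of these had a two-sided exact permutation p of 0.1, which is the smallest that 3 against 3 mice allow and is unadjusted over the 7 ratios computed in each tissue. Acadl over Acadvl, Acot2 over Acot1, Hadha over Hadhb and Etfa over Etfb overlapped between the groups (exact permutation p from 0.3 to 0.8).

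**Figure D4:**
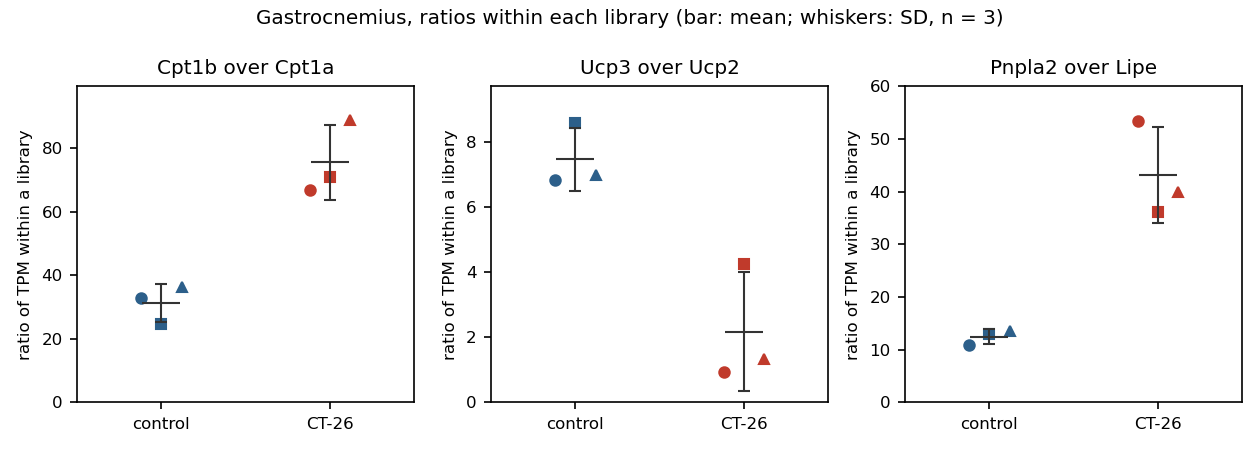
Ratios of TPM within each gastrocnemius library (points are mice 1 to 3 as circle, square and triangle, control in blue and CT-26 in red; bars are means and whiskers SD, n = 3; axes start at 0). Cpt1b over Cpt1a has means of 75.5 in CT-26 mice and 31.2 in controls, and Ucp3 over Ucp2 is lower in each CT-26 mouse.

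Other markers moved with these groups in muscle. Of 7 adipocyte markers 6 were called lower and 0 higher, with sums of 110 to 132 CPM in CT-26 mice and 194 to 247 CPM in controls, and none was at 0. Of 8 fibroblast markers 7 were called lower, with sums of 348 to 474 and 931 to 1477 CPM. All 6 tested neutrophil markers were called higher, with sums of 234, 46.5 and 89.2 CPM against 1.02 to 1.53 CPM. Lcn2 alone gave 97.0, 19.7 and 69.3 CPM of these sums in the CT-26 mice. Ltf and Camp were at 0 in all controls. Summed macrophage markers were 144, 57.0 and 181 CPM against 75.1 to 89.9 CPM, and 1 of 8 was called. The 5 erythroid markers were all called higher, with sums of 806 to 844 against 198 to 432 CPM. Of 6 Schwann cell markers 5 were called lower, with sums of 39.0 to 51.5 CPM against 91.7 to 123 CPM. On the CPM scale the myofibre sum was lower in every CT-26 mouse, at 68431 to 120239 against 123091 to 157973. On the TPM scale the sums overlapped, at 59427 to 92547 against 69559 to 99605. Of 9 myofibre markers 2 were called lower. The part of these cells in the results for Ucp2, Pnpla2 and the other genes was not tested.

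Fibre-type genes also varied between the muscle libraries. Myh7, the myosin of slow fibres, measured 1860, 251 and 721 CPM in CT-26 mice and 254, 196 and 379 CPM in controls, and Myh4, the myosin of the fastest fibres, 20861, 49986 and 14053 CPM against 47912, 61871 and 41120 CPM. Of the 4 fibre-type myosins 0 passed the edgeR test, 1 had an unadjusted p below 0.05, DESeq2 called 0 and the TPM test called 1. Myoglobin, encoded by Mb and rich in oxidative fibres, was lower in CT-26 mice at 854, 752 and 901 CPM against 1335, 1264 and 2931 CPM (log2 -1.14, adjusted p = 0.024), with control mouse 3 again the highest. Ucp1, which defines brown fat, totalled 13 counts over all 6 muscle libraries. The part of fibre composition in the results above was not tested.

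In the hypothalamus of CT-26 mice, transcripts of the lipase Pnpla2, of the lipase inhibitor Angptl4 and of the isomerase Eci2 were higher, and those of Hadha were lower. Of the 36 genes, 3 rose (Angptl4, Pnpla2 and Eci2), 1 fell (Hadha) and 32 did not pass the test. That is 11.1% of the list, close to the 8.77% of the 17961 tested genes that were called (3.94% higher and 4.83% lower). The median log2 fold change of the list was 0.02, beside -0.0032 for all genes. Groups did not overlap for 9 of the 36 genes (6 higher, 3 lower), where this held for 30.3% of all tested genes.

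Pnpla2 measured 49.7, 39.3 and 47.0 CPM in the hypothalamus of CT-26 mice and 33.2, 34.3 and 32.7 CPM in controls. All CT-26 mice lay above all controls, and the level was 1.36-fold higher (log2 0.44 ± 0.08, adjusted p = 0.010). Angptl4 (chromosome 17, 33773750 to 33781830) measured 7.94, 6.24 and 6.54 CPM against 4.13, 3.93 and 4.57 CPM, also without overlap, and was 1.64-fold higher (log2 0.71 ± 0.13, adjusted p = 0.010). These calls held in all alternatives but the one that shared the spread with muscle over all 12 libraries (adjusted p = 0.34 and 0.28). The ratio of Pnpla2 to Lipe in TPM was 5.31, 4.01 and 4.56 in CT-26 mice and 3.29, 3.18 and 3.17 in controls, again without overlap (two-sided exact permutation p = 0.1, the smallest possible).

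The remaining calls in the hypothalamus were small and were lost under most alternatives. Eci2 (chromosome 13, 34977748 to 35027096) measured 34.6, 33.8 and 34.6 CPM against 28.3, 28.2 and 30.1 CPM (log2 0.25 ± 0.06, adjusted p = 0.030), and 9 of 15 alternatives lost the call. Hadha (chromosome 5, 30118304 to 30155162) measured 69.3, 70.4 and 70.5 CPM against 80.1, 80.9 and 77.8 CPM (log2 -0.18 ± 0.05, adjusted p = 0.032), and 12 of 15 lost it. Neither pair of groups overlapped, and the differences were 1.19-fold and 1.14-fold. Here too cell markers moved. Called higher were 5 of 6 tested neutrophil markers (sums of 39.2 to 131 against 4.44 to 5.81 CPM) and 5 of 5 erythroid markers. Lcn2, 1 of these neutrophil markers, gave 27.2 of the 39.2 CPM in CT-26 mouse 3, where S100a8 stood at 3.03 CPM. Of 5 oligodendrocyte markers 3 were called lower (2870 to 3083 against 4202 to 4730 CPM). Of 8 macrophage markers 3 were called higher and 0 lower, with sums of 116 to 137 CPM against 101 to 109 CPM. Of 6 astrocyte and tanycyte markers 0 were called higher and 1, Aqp4, lower, with sums of 1111 to 1228 CPM against 1143 to 1407 CPM. The part of these cells in the hypothalamic results was not tested.

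Several genes that changed in muscle did not pass the test in the hypothalamus. Cpt1a measured 26.3, 26.5 and 25.7 CPM against 25.9, 28.3 and 29.3 CPM, with overlapping groups (log2 -0.09 ± 0.07, adjusted p = 0.44). Acads measured 6.33, 5.84 and 6.25 CPM against 6.85, 6.18 and 6.43 CPM, and Echs1 32.7, 34.3 and 33.3 CPM against 31.0, 32.7 and 33.1 CPM, neither passing the test. Acaa2, lower in CT-26 muscle, stood in the hypothalamus at 14.5, 14.5 and 14.1 CPM against 11.9, 11.9 and 12.8 CPM, without overlap but with an adjusted p of 0.081 (log2 0.24 ± 0.08).

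The effect of CT-26 was tested for a difference between the tissues as an interaction over all 12 libraries. This fit shared 1 spread between the tissues. Replicates differed more in muscle (chi-square per gene 22.0 to 177) than in hypothalamus (6.34 to 10.8). Muscle effects taken from it had 3826 genes higher and 3984 lower, instead of 2801 and 2616 from muscle alone. Hypothalamic effects had 108 and 54, instead of 708 and 867. The SE and adjusted p may therefore be too small for interaction calls that rest on muscle. Of the 36 genes 10 differed (27.8%), with the muscle effect above the hypothalamic one for 3 and below it for 7, while 26.4% of the 18746 genes tested differed (12.4% and 14.0%). For Pnpla2 the muscle effect exceeded the hypothalamic one by 1.07 ± 0.25 on the log2 scale (adjusted p = 0.0063), although it rose in both. Cpt1a differed by -1.11 ± 0.18 (adjusted p = 7.63e-04), Acads by -1.17 ± 0.27 (adjusted p = 0.0074) and Decr1 by -1.09 ± 0.22 (adjusted p = 0.0032). Echs1 differed by 0.76 ± 0.15 (adjusted p = 0.0027). The calls for Acads, Decr1, Echs1 and Pnpla2 held in each of the 12 alternatives run for this test. When CT-26 mouse 2 was left out, Hadh (-0.62, adjusted p = 0.052) and Slc27a1 (-0.75, adjusted p = 0.081) missed the threshold. Leaving out control mouse 3 had the same outcome for Slc27a1 (-0.57, adjusted p = 0.069), Ucp2 (1.54, adjusted p = 0.054) and Ucp3 (-1.26, adjusted p = 0.061), while Acot2 then passed (0.94, adjusted p = 0.026). Angptl4 passed with either of these mice left out (-1.31 each).

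**Figure D5:**
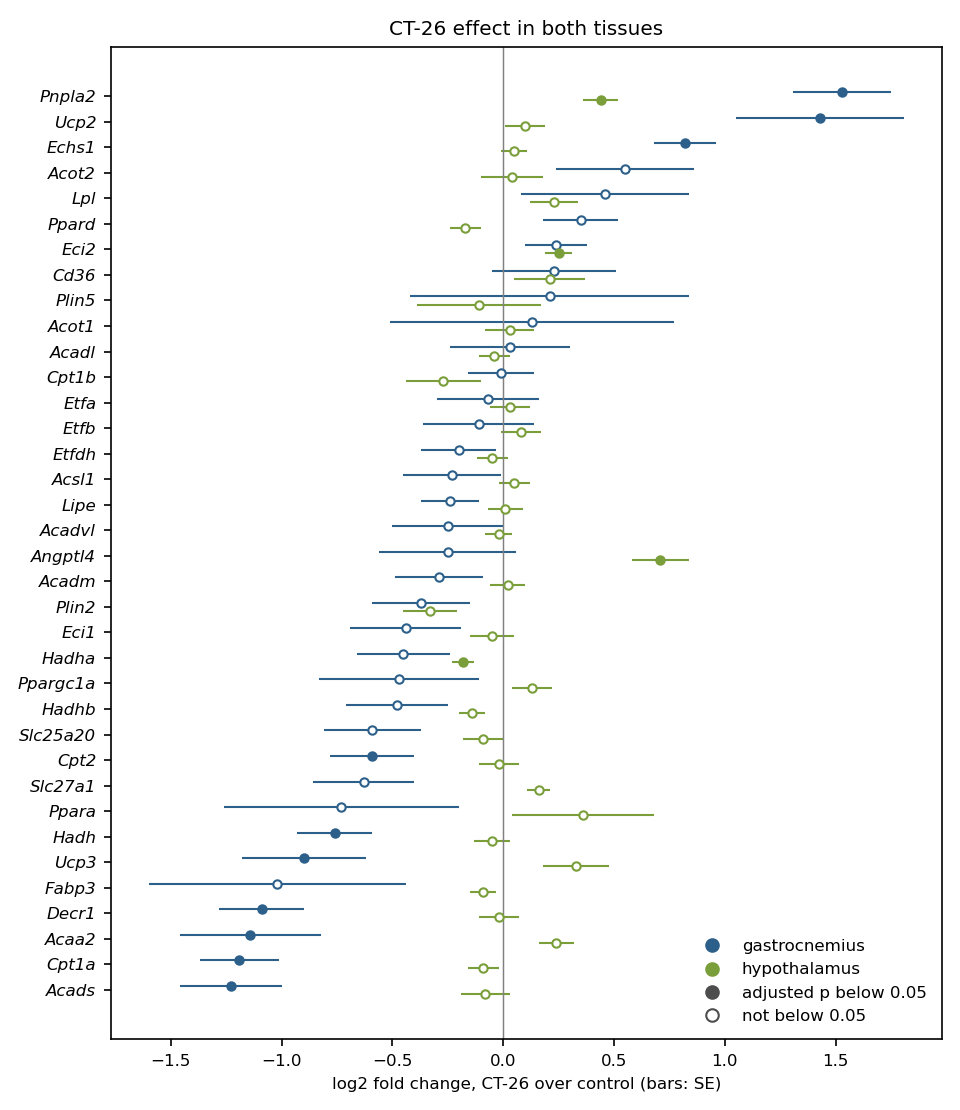
Log2 fold change of CT-26 over control with its SE for the 36 genes, in order of the gastrocnemius value (gastrocnemius in blue, hypothalamus in green; filled points have an adjusted p below 0.05). Pnpla2 is the gene called higher in both tissues, at 1.53 and 0.44, and the hypothalamic values lie between -0.33 and 0.71.

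Other genes of lipid metabolism, 80 in a list around the 36, changed in both directions. In muscle 17 rose and 20 fell of 79 tested (46.8%, beside 38.0% of all genes), and in the hypothalamus 7 rose and 6 fell of 78 (16.7%, beside 8.77%). The named genes were taken from the 4 in each direction and tissue with the smallest p. In muscle Plin4, a droplet coat protein, rose 3.70-fold, from 165, 220 and 288 CPM in controls to 1040, 751 and 698 CPM. Acsl6, a long-chain acyl-CoA synthetase, rose 3.59-fold, from 29.9, 28.4 and 23.6 to 97.9, 127 and 69.0 CPM. Klf15, a transcription factor of muscle lipid use, rose 3.22-fold and Acot9, a mitochondrial thioesterase, 2.00-fold.

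Those that fell in muscle were Gpam, which starts glycerolipid synthesis (2.69-fold lower, from 193, 195 and 183 to 64.8, 79.0 and 68.9 CPM), Fitm1, a droplet-forming protein of muscle (2.09-fold lower), Acot7, an acyl-CoA thioesterase (2.27-fold lower) and Abcd2, a peroxisomal fatty acyl-CoA transporter (3.64-fold lower). Abcd2 measured 9.19, 22.1 and 10.5 CPM in CT-26 mice and 52.1, 51.6 and 47.4 CPM in controls. Of the 14 peroxisomal genes 7 fell in muscle and 0 rose (median log2 fold change -0.41), where 18.3% of all tested genes fell and 19.6% rose. Of 13 other acyl-CoA synthetase, carnitine and malonyl-CoA genes 5 rose and 1 fell. Of 11 further acyl-CoA enzymes, Acot7 and Acot9 among them, 4 rose and 3 fell, and of 13 storage and droplet genes 3 rose and 3 fell. These counts were not tested as sets. Chosen after their values were seen, the acetyl-CoA carboxylases that make malonyl-CoA both rose in muscle: Acaca from 13.5, 13.1 and 17.1 to 68.6, 26.3 and 46.4 CPM (log2 1.69 ± 0.31, adjusted p = 0.0041) and Acacb from 235, 277 and 289 to 578, 462 and 392 CPM (log2 0.84 ± 0.18, adjusted p = 0.0076). Mlycd, which breaks down malonyl-CoA, measured 116, 103 and 121 CPM in CT-26 muscle and 61.6, 69.6 and 105 CPM in controls. Its groups overlapped, with most CT-26 values above the controls.

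In the hypothalamus Plin4 rose 5.13-fold, from 6.13, 5.61 and 9.08 CPM to 39.9, 24.0 and 41.8 CPM (log2 2.36 ± 0.22, adjusted p = 3.39e-04). Acacb rose 1.43-fold and Mlycd 1.24-fold. Fabp7, a fatty acid carrier of astrocytes and radial glia, fell 4.2-fold, from 51.5, 51.6 and 53.4 to 11.2, 15.2 and 11.1 CPM (log2 -2.07 ± 0.11, adjusted p = 9.37e-06). Mgll, monoglyceride lipase, was 1.28-fold lower, Acot7 1.2-fold and Acss2, an acetyl-CoA synthetase, 1.26-fold. The call for Mlycd was lost without CT-26 mouse 1, CT-26 mouse 3 or control mouse 2 (adjusted p = 0.071, 0.063 and 0.073). That for Acot7 was lost without CT-26 mouse 2, CT-26 mouse 3 or control mouse 2 (adjusted p = 0.063, 0.060 and 0.054), and that for Acss2 without CT-26 mouse 1, CT-26 mouse 3, control mouse 2 or control mouse 3 (adjusted p = 0.065, 0.069, 0.084 and 0.063). With TPM the calls for Acacb, Mlycd, Acot7 and Acss2 were lost.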

How the data were processed

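Gene tables of 12 libraries were used, 3 mice in each of 4 groups (gastrocnemius and hypothalamus, CT-26 and control). The libraries were made with a directional kit and read as 100 bp pairs, per the labels' protocols. Reads were trimmed with Trim Galore 0.6.6, and STAR 2.7.9a with RSEM 1.3.3 gave the gene tables on GRCm38, per the submitters' processing notes. The annotation release and the strand setting are not given in the sources used here. The deposited tables hold RSEM expected counts, which need not be whole, TPM and FPKM, as the authors' RSEM runs wrote them. FPKM was not used. Names and gene coordinates (1-based, GRCm38) came from GENCODE M21, which named 52135 of 55416 identifiers, with 99.648% of counts.

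Expected counts were rounded and tested with edgeR 4.0.16 in R 4.3.3 (filterByExpr, TMM, quasi-likelihood F test, Benjamini-Hochberg over all genes tested; called at adjusted p below 0.05), each tissue on its own 6 libraries. The interaction and the tissue contrast used all 12 and shared 1 spread between the tissues. The SE of a log2 fold change was taken from the F statistic. TPM was tested with limma 3.58.1 on log2(TPM + 0.5) and log2(TPM + 0.1), so TPM fold changes are understated for low genes. DESeq2 1.42.0, other scalings and filters, each library left out and a replicate block were alternatives. The fits were tested on simulated data. Replicates of a group were not duplicates (chi-square per gene from 6.34 to 177).

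The listed genes, gene lists, cell markers and tests were chosen with earlier results of these data known. Library values are given for every listed gene called in either tissue and for Cpt1a, Cpt1b, Cpt2, Cd36, Fabp3, Acadl, Hadha, Ppargc1a, Ucp3 and Plin2; of the 80 other pathway genes, the 4 called with the smallest p in each direction and tissue are named, except 1 that is not reported here. Both tissues of a number came from the same mouse, per the labels. Deviations of the tissues of a mouse from their group means correlated between -0.14 and 0.23 over genes, and a mouse block changed none of the 10 interaction calls.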

Additional observations from a re-analysis of the deposited data

Results flagged for a closer look

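For 10 of the 36 genes the CT-26 effect differed between the tissues by the interaction term (edgeR quasi-likelihood test, gastrocnemius effect minus hypothalamus effect on the log2 scale). The difference was -0.80 for Slc27a1, -1.11 for Cpt1a, -1.17 for Acads, -0.72 for Hadh, -1.38 for Acaa2, -1.09 for Decr1 and -1.25 for Ucp3. It was 0.76 for Echs1, 1.07 for Pnpla2 and 1.32 for Ucp2. For Slc27a1 and Ucp2 the call held in 6 of 12 alternatives, for Ucp3 in 8, for Hadh in 9, for Cpt1a and Acaa2 in 11 and for the others in 12. Slc27a1, Ucp2 and Ucp3 were each lost without control mouse 3 and without control mouse 2. The fit shared 1 spread between the tissues, so its SE and adjusted p may be too small for effects that rest on muscle.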

How the results depend on the processing

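Of 36 listed genes, 5 of 10 muscle calls held in every alternative and none of 4 hypothalamic calls did. All genes called higher in muscle numbered 2801 (4492 with TPM plus 0.1, 4473 with TPM plus 0.5; 1768 to 2779 with 1 library left out) and lower 2616 (1046, 1018, 3984 with all 12 libraries, 1662 with library totals; 1779 to 2671). Listed genes called higher were 3 (6, 6, 5 with library totals; 2 to 4) and lower 7 (4, 4, 11 with all 12 libraries, 12 with the replicate block; 4 to 9). In the hypothalamus, genes called higher were 708 (254, 245, 108 with all 12 libraries, 1307 with no filter; 283 to 543) and lower 867 (280, 275, 54 with all 12 libraries, 554 with the replicate block; 293 to 725). Listed genes there were 3 higher (0 with all 12 libraries; 2 to 3) and 1 lower (0 with TPM, all 12 libraries, library totals, no filter and the replicate block; 0 to 1). For the interaction, 2323 genes were higher (4081 with TPM; 1492 to 2387) and 2629 lower (868, 1634 with library totals; 1696 to 2349), and of listed genes 3 higher (5 with TPM; 2 to 3) and 7 lower (3 with TPM; 5 to 7). Between tissues, 6687 genes were higher in muscle (2584 with TPM, 2939 with library totals; 6247 to 6334) and 8943 lower (13844 and 13565; 8465 to 8609), and 2 listed genes were lower (4 and 4; 0 to 2). The cause of these shifts was not tested.

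Under at least 1 alternative the log2 fold change of 13 of the 36 genes changed sign in muscle, of 11 in the hypothalamus and of 17 for the interaction, 0 of them called. Between tissues 3 did, of which Slc27a1 (-0.87 TPM, -0.74 library totals) and Angptl4 (-0.02 TPM) were called. Of the genes given by library, those in muscle were Angptl4 (0.20 and 0.16 with TPM, 0.03 without control mouse 2; -0.52 to 0.03 with 1 library left out), Cpt1b (0.40 and 0.40 with TPM, 0.20 library totals, 0.01 no filter, 0.00 replicate block, 0.00 without CT-26 mouse 2, 0.14 without control mouse 3; -0.11 to 0.14) and Acadl (-0.13, -0.18 and -0.08 without CT-26 mouse 3, control mouse 1 or control mouse 2; -0.18 to 0.38). In the hypothalamus those were Cpt2 (0.01 library totals, 0.04 and 0.00 without CT-26 mouse 1 or control mouse 3; -0.05 to 0.04), Acadl (0.03 without control mouse 2) and Decr1 (0.01 library totals, and 0.02, 0.00, 0.00 and 0.03 without 1 library; -0.07 to 0.03). Cpt1a between tissues was -1.15 with TPM and -1.14 with library totals. The numbers of CT-26 and control mice do not pair the samples: they are different animals, and deviations of same-numbered muscle libraries correlated at -0.08, 0.23 and 0.34. The replicate block added 5 listed genes to the muscle calls and lost none. With 3 mice a group, small changes in muscle can be missed.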
